A study of Mus musculus with 6 samples.

Results

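The Egr and Nr4a immediate early transcription factors, the Egr corepressors Nab1 and Nab2, the related early gene Ier2 and the serum response factor Srf were examined in 4T1 cells, a BALB/c mouse mammary carcinoma line grown here in collagen I gels. The members were chosen by name, with earlier results of these data known. Each of the 10 was found among the 31017 genes of the count table. All 10 also passed the filter on low counts that left 12158 genes for testing. The 6 libraries of polyadenylated RNA fall into 3 controls, from cells nucleofected with Cas9 and control guide RNAs, and 3 libraries labelled FGFR2 KO, from cells nucleofected with Cas9 and guides for that receptor. Both groups had been suspended in collagen of either 1.2 mg/ml or 2.4 mg/ml (not given per library), cultured in gels with 10% serum, and freed with collagenase at 37 °C for 10 and then 5 min before the pellets were frozen. The labels do not say whether the KO cells were a clone or a pool, how long the gels were kept, or whether replicates came from separate cultures. The p-values thus rest on the spread among these libraries, which may be technical. Values per library are given in the order of replicates 1, 2 and 3.

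Immediate early genes are transcribed within minutes of a stimulus without new protein synthesis. Many carry CArG boxes in their promoters, where Srf binds together with ternary complex factors of the ETS family that ERK phosphorylates, and ERK is a main effector of FGF receptors. Other members of the class, the Nr4a orphan nuclear receptors above all, respond to cAMP through CREB. Egr proteins are zinc finger factors that bind GC-rich sites, and they induce their own corepressor Nab2, which closes a feedback loop.

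The libraries held 15531790 to 20447719 counts, and every pair of replicates differed by more than counting noise (chi-square per degree of freedom 2.29 to 4.87 within groups). Fgfr2 itself was measured at 96.9, 95.9 and 106 CPM (counts relative to the scaled library total) in the controls and at 101, 81.2 and 95.2 CPM in the libraries labelled KO (log2 fold change -0.11, edgeR quasi-likelihood adjusted p = 0.113), so the groups overlapped. A total over the gene does not check the label, because a small deletion need not lower a transcript. The 6 epithelial markers summed to 3991 to 4105 CPM in control and 4116 to 4252 CPM in KO libraries. All 6 were called, 2 higher and 4 lower, where 54.6% of all tested genes were called (27.1% higher, 27.5% lower). The basal keratin Krt14 averaged 60.2 CPM (SD 1.08) over the 3 controls and 957 CPM (SD 18.0) over the 3 KO libraries, a log2 rise of 3.99 (edgeR adjusted p = 7.45e-42), and Cdh1 rose by 0.25. The luminal keratins Krt18, Krt19 and Krt8 fell by 0.61, 0.56 and 0.16, and Epcam fell by 0.42. The part of these shifts in the members' values was not tested. Among the leukocyte markers given here, Cd3e, Adgre1 and Ly6g were at 0 in all libraries and Ptprc had 3 counts. The lysosomal gene Cd68 stood at 13.7 ± 1.46 CPM in control and 5.97 ± 0.974 CPM in KO libraries (SD, n = 3) and fell by 1.19 on the log2 scale (edgeR adjusted p = 7.88e-10). Among 4 fibroblast markers, Lum and Col3a1 were at 0 in all libraries, Dcn had 35 counts (0.036 CPM in control and 0.564 CPM in KO libraries on average), and Pdgfra was at 36.4 and 39.4 CPM (edgeR adjusted p = 0.143). Among 4 endothelial markers, Kdr and Tek were at 0, Pecam1 had 24 counts and Cdh5 had 3. In bulk RNA, fewer cells that express a gene and less RNA per cell cannot be told apart.

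The 3 Egr genes were lower and Nr4a2 was higher in the KO libraries. Nr4a3 was also higher, but it passed the filter on low counts only through those libraries. Nr4a1 overlapped between the groups, and its call was lost in 9 of 13 alternative analyses. Of the 10 members, 5 fell (Egr1, Egr2, Egr3, Nab2 and Ier2), 3 rose (Nr4a1, Nr4a2 and Nr4a3) and Nab1 and Srf did not pass the test. Across all tested genes 54.6% were called at an adjusted p below 0.05 (27.1% higher and 27.5% lower in KO), so a call alone is common in this comparison. The sizes were less common: Egr1, Egr2 and Egr3 each fell more than 2-fold, as did 3.87% of tested genes. The median absolute log2 fold change was 0.61 over the members and 0.21 over all tested genes, and the signed medians were -0.24 and -0.01. Without Nr4a3 the middle member is Nab2 (-0.53) by absolute size and Ier2 (-0.51) by signed value. Control and KO libraries did not overlap for 8 of the members (all but Nr4a1 and Srf, so Nr4a3 is included), against 59.5% of all tested genes. As the members were chosen with earlier results of these data known, these figures describe them and are no test.

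**Figure D1:**
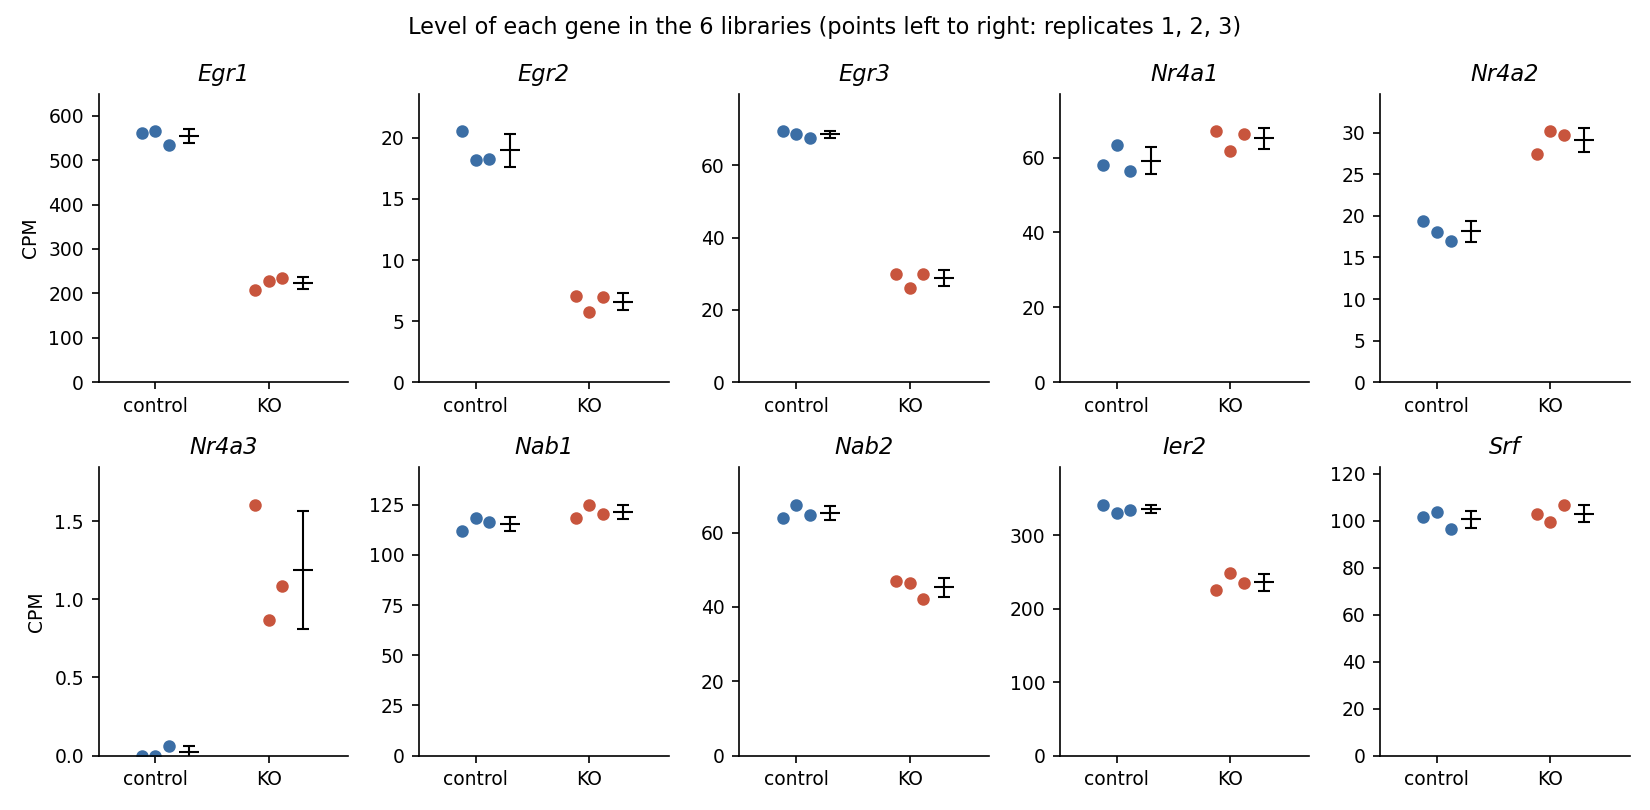
Level of each gene in CPM (vertical axes start at 0) in the 3 control and 3 KO libraries, 1 point per library, with the mean and SD in black. The KO points of Egr1, Egr2, Egr3, Nab2 and Ier2 lie below all control points, those of Nr4a2, Nr4a3 and, by a narrow margin, Nab1 lie above them, and those of Nr4a1 and Srf overlap with the controls.

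Srf, the MADS box factor through which serum and ERK reach many early genes (chromosome 17, 46548329 to 46556175, minus strand, ENSMUSG00000015605), was at 101, 104 and 96.5 CPM in the controls and at 103, 99.3 and 107 CPM in the KO libraries. The groups overlapped. On the log2 scale KO differed from control by 0.03 (95% interval -0.06 to 0.12, SE 0.046, edgeR adjusted p = 0.576). The group means, 101 ± 3.65 and 103 ± 3.72 CPM (SD, n = 3), differed by less than the spread between replicates. Of 6 tested Srf cofactors, 1 rose and 2 fell (median -0.08, 50% called against 54.6% of all tested genes). The ternary complex factor Elk3 fell by 0.23 on the log2 scale (edgeR adjusted p = 6.01e-06), Scai, a repressor of the actin-regulated cofactors, fell by 0.46, and the actin-regulated cofactor Mrtfa (listed as Mkl1) rose by 0.16. Elk1 and Elk4 had log2 fold changes of -0.10 and -0.05 and Mrtfb (listed as Mkl2) of 0.08, none past the test.

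Promoter sequences of RefSeq (build GRCm38.p6, windows of 250 bases before to 50 after the start site) were at hand for 7 of the 10 members. None was at hand for Egr1, Egr3 or Ier2. The sequences of Egr2 and Srf are shown because both hold CArG boxes, while Egr2 fell and Srf did not pass the test. Capitals mark CArG boxes (matched on both strands), the CRE core TGACG or its complement CGTCA, and the Egr site GCGNGGGCG or its complement. Only bases that lie in no annotated exon of the gene are printed, for Egr2 from chr10:67537619-67537868 (plus strand) and for Srf from chr17:46556176-46556412 (minus strand). The Egr2 bases lie inside the annotated gene, downstream of its first annotated exon, and were picked among the start sites listed for Egr2 because they hold both a CArG box and CRE cores.
Egr2: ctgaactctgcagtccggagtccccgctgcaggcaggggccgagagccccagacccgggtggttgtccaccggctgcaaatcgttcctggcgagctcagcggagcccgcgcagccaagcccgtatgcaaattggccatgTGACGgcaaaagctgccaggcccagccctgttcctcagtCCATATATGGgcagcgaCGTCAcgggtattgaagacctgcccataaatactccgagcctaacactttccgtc
Srf: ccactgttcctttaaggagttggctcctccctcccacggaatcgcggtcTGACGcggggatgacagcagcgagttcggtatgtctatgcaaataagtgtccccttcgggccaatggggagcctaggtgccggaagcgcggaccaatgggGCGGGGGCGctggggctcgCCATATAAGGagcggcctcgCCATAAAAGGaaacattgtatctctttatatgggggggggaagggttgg
Egr2 holds 1 CArG box, starting 72 bases upstream of the start site, between CRE cores at 111 and 55 bases, and the window of another Egr2 start site upstream holds 1 more CArG box. Srf holds 2 CArG boxes at 82 and 62 bases, an Egr site at 101 bases and a CRE core at 201 bases. A CArG box was found in 1.64% of the 32544 distinct promoter windows of the table, a CRE core in 20.9% and an Egr site in 5.60%. Such matches describe the letters of the windows and show no binding.

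Egr1, the most abundant Egr gene and a classic reporter of ERK activity (chromosome 18, 34859823 to 34864984, plus strand, ENSMUSG00000038418), was at 562, 565 and 535 CPM in the controls and at 207, 229 and 234 CPM in the KO libraries. The lowest control lay far above the highest KO library. Egr1 fell by 1.31 on the log2 scale (SE 0.040, edgeR adjusted p = 3.52e-26), which is 2.48-fold. A lower fold change was found for 2.22% of tested genes. The reads behind these values numbered 30084 in the control and 13091 in the KO libraries.

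Egr2, known for its role in Schwann cell myelination (chromosome 10, 67535475 to 67542188, plus strand, ENSMUSG00000037868), was the least abundant of the 3 Egr genes among the members. It stood at 20.5, 18.2 and 18.3 CPM in the controls and at 7.06, 5.77 and 6.96 CPM in the KO libraries, with no overlap. Egr2 fell by 1.53 on the log2 scale (SE 0.11, edgeR adjusted p = 2.90e-14), 2.88-fold.

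Egr3, a relative with a role in muscle spindles and lymphocytes (chromosome 14, 70077203 to 70082614, plus strand, ENSMUSG00000033730), was at 69.5, 68.6 and 67.6 CPM in the controls and at 30.0, 26.2 and 30.0 CPM in the KO libraries. It was the member that varied least between control libraries, with a coefficient of variation of 1.35%. Egr3 fell by 1.25 on the log2 scale (SE 0.061, edgeR adjusted p = 1.14e-19), 2.39-fold. The 95% intervals of the 3 Egr fold changes overlapped, at -1.39 to -1.23 for Egr1, -1.75 to -1.30 for Egr2 and -1.38 to -1.13 for Egr3. The fourth gene of the family, Egr4, was not a member and too low to test, with 16 counts over the control and 6 over the KO libraries (ratio 0.347, 95% interval 0.111 to 0.934 for counting error only).

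**Figure D2:**
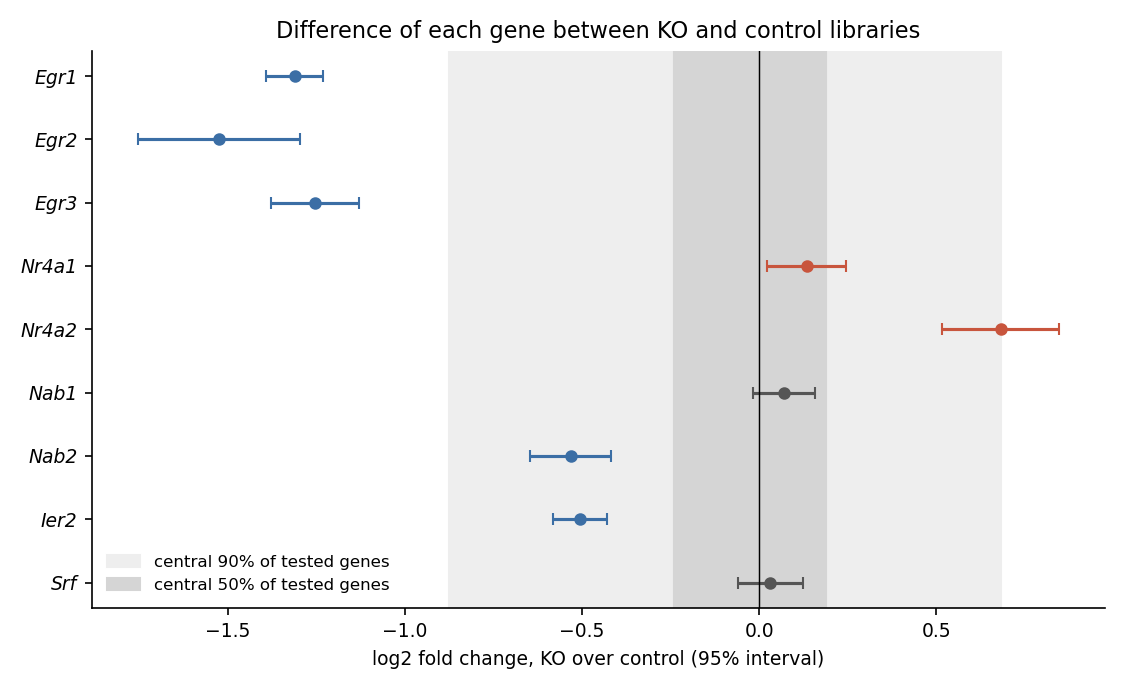
Log2 fold change (KO over control, horizontal axis) of each gene with its 95% interval, Nr4a3 left out because its control level is near 0. The dark and light bands hold the central 50% and 90% of all tested genes, and the 3 Egr genes lie to the left of both bands.

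Levels of different genes can be set side by side only per length, here as CPM per kilobase (kb) of annotated exon. On this scale the Egr genes summed to 147, 147 and 140 CPM per kb in the controls and to 55.0, 58.7 and 61.1 CPM per kb in the KO libraries. Egr1 made up 85.4% ± 0.340 of that sum in the control and 85.4% ± 1.56 in the KO libraries (SD, n = 3). The share of Egr3 was 10.8% and 11.2%, and that of Egr2 3.86% and 3.34%. The groups overlapped in each of these shares (exact two-sided permutation p = 1 for Egr1, 0.7 for Egr3 and 0.2 for Egr2, where 0.1 is the smallest p that 3 against 3 libraries allow). The summed level itself did not overlap between groups (exact permutation p = 0.1, adjusted over 8 sums and shares 0.16). Egr1 was the dominant Egr transcript in every library.

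Nab2, a corepressor that Egr proteins induce and that then restrains them (chromosome 10, 127660918 to 127668568, minus strand, ENSMUSG00000025402), was at 63.8, 67.5 and 64.6 CPM in the controls and at 47.0, 46.5 and 42.2 CPM in the KO libraries. The groups did not overlap. The mean went from 65.3 ± 1.94 to 45.2 ± 2.66 CPM (SD, n = 3), and Nab2 fell by 0.53 on the log2 scale (SE 0.057, edgeR adjusted p = 3.92e-10). Exons of Nab2 overlap on the opposite strand with Stat6, Nemp1 and Gm16229, and the strand setting of the counting is not given, so reads of these genes may be among its counts. Stat6 and Nemp1 also fell, by 0.38 and 0.40 on the log2 scale (edgeR adjusted p = 1.22e-10 and 1.03e-04), and their part in the Nab2 value was not tested.

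Nab1, its paralog with the same corepressor function (chromosome 1, 52457294 to 52500679, minus strand, ENSMUSG00000002881), was at 112, 118 and 116 CPM in the controls and at 118, 125 and 120 CPM in the KO libraries. The highest control (118.3 CPM) and the lowest KO library (118.5 CPM) were almost equal. Its log2 fold change of 0.07 did not pass the test (SE 0.043, 95% interval -0.02 to 0.16, edgeR adjusted p = 0.170). The Nab1 window holds 3 Egr sites, at 141, 109 and 38 bases upstream of its RefSeq start and inside the annotated gene. The Nab2 window holds none of the motifs searched, but it lies inside the gene, downstream of the gene's annotated start.

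The level of each Egr factor relative to Nab2 was lower in every KO library than in any control. The log2 ratio of Egr1 to Nab2 per kb was 2.53, 2.46 and 2.44 in the controls and 1.53, 1.69 and 1.87 in the KO libraries, with no overlap. The mean ratio was lower by 0.78 for Egr1, 0.73 for Egr3 and 1.00 for Egr2, each over Nab2. The log2 ratio of Nab1 to Nab2 went the other way, from 0.34 ± 0.022 to 0.94 ± 0.089 (SD, n = 3, exact permutation p = 0.1). In all, 8 ratios between members were compared after their values had been seen. For all 8 the groups did not overlap and the exact two-sided permutation p was 0.1, the smallest possible, also after adjustment over the 8. The paired members already differed in fold change, so the ratios restate those differences and are no separate support. Of the NuRD subunits that the Nab proteins recruit, Chd3 and Chd4 fell by 0.24 and 0.15 on the log2 scale (edgeR adjusted p = 9.25e-07 and 5.18e-04).

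Ier2, a short-lived nuclear early gene product induced by growth factors (chromosome 8, 84661331 to 84662852, minus strand, ENSMUSG00000053560), was at 342, 330 and 334 CPM in the controls and at 225, 248 and 235 CPM in the KO libraries. Every KO library lay below every control. Ier2 fell by 0.51 on the log2 scale (SE 0.038, edgeR adjusted p = 4.16e-14). Per kb it was the most abundant member in both groups, at 220 ± 3.73 and 155 ± 7.54 CPM per kb (SD, n = 3). The log2 ratio of Egr1 to Ier2 per kb was lower by 0.81 in the KO libraries, with no overlap (exact permutation p = 0.1).

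Nr4a2, an orphan nuclear receptor also called Nurr1 (chromosome 2, 57106830 to 57124003, minus strand, ENSMUSG00000026826), was at 19.4, 18.0 and 17.0 CPM in the controls and at 27.4, 30.2 and 29.8 CPM in the KO libraries. All KO libraries lay above all controls. Nr4a2 rose by 0.68 on the log2 scale (SE 0.081, edgeR adjusted p = 4.92e-09), 1.60-fold.

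Nr4a1, also called Nur77 (chromosome 15, 101254269 to 101274795, plus strand, ENSMUSG00000023034), was at 57.9, 63.4 and 56.3 CPM in the controls and at 67.1, 61.9 and 66.4 CPM in the KO libraries, so the groups overlapped. Its log2 fold change was 0.13 (SE 0.055, edgeR adjusted p = 0.0386), a rise of 9.74%. This call was lost in 9 of 13 alternative analyses, among them DESeq2 (adjusted p = 0.0649) and upper quartile scaling (edgeR adjusted p = 0.0868). It was also lost without control replicate 1 (edgeR adjusted p = 0.131), control replicate 3 (0.167), KO replicate 1 (0.1096) or KO replicate 3 (0.103).

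Nr4a3, also called Nor1 (chromosome 4, 48045153 to 48086447, plus strand, ENSMUSG00000028341), was almost absent from the control libraries, with 0, 0 and 1 counts and had 30, 17 and 22 counts in the KO libraries. That is 0, 0 and 0.065 CPM against 1.60, 0.868 and 1.09 CPM. The ratio of summed counts was 63.8, with a 95% interval of 11.1 to 2558 for counting error only. Nr4a3 was called (edgeR adjusted p = 2.36e-07), but it passed the filter on low counts only through the KO libraries, and its KO level per kb was above that of 3.20% of tested genes.

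The promoters of the Nr4a genes are shown because each window holds 4 CRE cores, a number reached by 0.234% of the 32544 windows. This count was singled out after the matches had been seen and is given as a description. They come from chr15:101266596-101266845 for Nr4a1 (plus strand, inside the gene and downstream of its first annotated exon), chr2:57124004-57124253 for Nr4a2 (minus strand) and chr4:48045055-48045152 for Nr4a3 (plus strand), with capitals as above.
Nr4a1: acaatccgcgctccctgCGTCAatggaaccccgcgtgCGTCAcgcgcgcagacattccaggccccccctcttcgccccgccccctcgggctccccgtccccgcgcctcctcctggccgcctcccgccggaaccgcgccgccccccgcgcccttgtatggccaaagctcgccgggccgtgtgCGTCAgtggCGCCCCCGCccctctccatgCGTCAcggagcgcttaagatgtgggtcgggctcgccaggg
Nr4a2: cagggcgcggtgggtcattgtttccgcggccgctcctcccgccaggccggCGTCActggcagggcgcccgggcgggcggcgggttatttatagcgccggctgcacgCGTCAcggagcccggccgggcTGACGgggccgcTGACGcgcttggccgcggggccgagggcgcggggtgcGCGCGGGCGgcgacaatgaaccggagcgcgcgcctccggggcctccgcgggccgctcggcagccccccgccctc
Nr4a3: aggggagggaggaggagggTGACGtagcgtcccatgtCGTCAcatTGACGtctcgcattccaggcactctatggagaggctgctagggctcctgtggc
The fourth core of Nr4a3 lies in an annotated exon and is not printed. Nr4a1 and Nr4a2 hold 1 Egr site each, and none of the Nr4a windows holds a CArG box. The full CRE TGACGTCA (in 1.80% of windows) and the Nr4a binding element AAAGGTCA (1.52%) were found in no window of the 7 members searched. The TATA core TATAAA (13.6%) was found in the windows of Nr4a2 and Srf. The ETS core CCGGAA (14.98%) was found in those of Nr4a1 and Srf and at an upstream Egr2 start site. All motifs were searched on both strands, and a full CRE would count as 2 overlapping cores.

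Per kb the Nr4a genes summed to 21.3, 22.5 and 20.2 CPM in the controls and to 26.1, 25.2 and 26.4 CPM in the KO libraries, with no overlap. Their makeup moved towards Nr4a2. The shares restate the fold changes given above and are no separate support. The share of Nr4a1 was 79.0% ± 1.38 in the control and 71.5% ± 1.59 in the KO libraries, and the share of Nr4a2 20.9% ± 1.38 and 27.7% ± 1.81 (SD, n = 3, exact permutation p = 0.1 for each, adjusted over 8 sums and shares 0.16). Nr4a3 supplied 0.762% of the family level in the KO libraries.

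**Figure D3:**
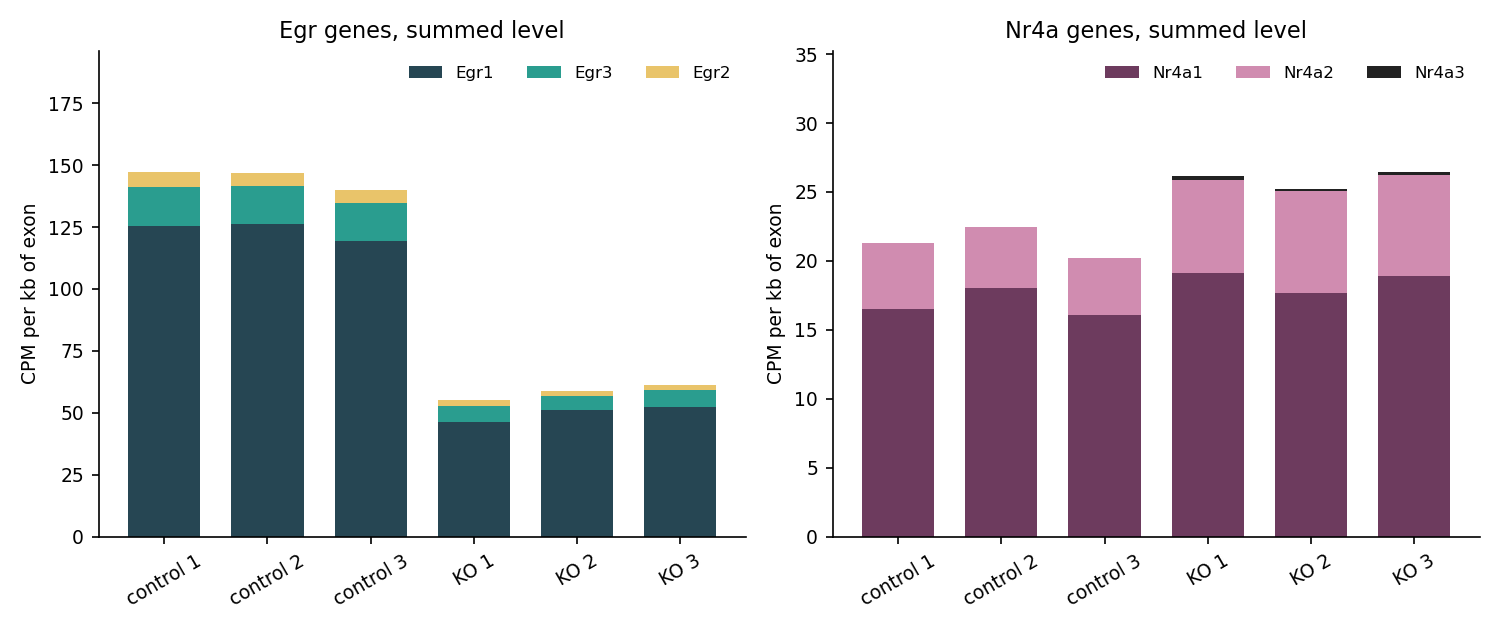
Summed level of the Egr genes (left) and the Nr4a genes (right) in CPM per kb of exon, 1 stacked bar per library, with the genes in colour. The Egr bars reach 140 to 147 in control and 55.0 to 61.1 in KO libraries, and the Nr4a bars 20.2 to 22.5 and 25.2 to 26.4.

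Ordered by level per kb in the control libraries, the members ran from Ier2 (220) and Egr1 (124) through Srf (34.8), Nab1 (28.2), Nab2 (22.2), Nr4a1 (16.9) and Egr3 (15.6) to Egr2 (5.59), Nr4a2 (4.47) and Nr4a3 (0.0036), and the ranges of neighbours over the 3 libraries did not overlap. In the KO libraries Nr4a1 (18.6) stood above Nab2 (15.4), and Nr4a2 (7.18) and Egr3 (6.52) overlapped. Egr1 had a level per kb above that of 97.3% of tested genes in the control and 91.7% in the KO libraries. Egr3 went from above 72.1% to above 48.5%. Nr4a2 was below Egr2 in every control library and above it in every KO library.

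Other immediate early genes were mostly higher in the KO libraries, unlike the Egr genes. Of 37 tested genes of a list of 39, 26 rose and 8 fell (median log2 fold change 0.19, 91.9% called against 54.6% of all tested genes). Of all tested genes, 27.1% were called higher and 27.5% lower. The list summed to 9569 to 9982 CPM in control and 10176 to 10748 CPM in KO libraries. The AP-1 subunit Fosl2 stood at 88.9 ± 0.179 CPM in control and 271 ± 13.7 CPM in KO libraries (SD, n = 3), a rise of 1.61 on the log2 scale (edgeR adjusted p = 5.81e-28). The bZIP repressor Nfil3 rose by 1.51, the stress gene Gadd45b by 1.19, and the matricellular genes Cyr61 and Ctgf by 1.14 and 1.06. Atf3, a stress-induced bZIP factor, rose by 0.84. Fos, the AP-1 subunit that shares Srf control with Egr1, rose by 0.27 (edgeR adjusted p = 3.68e-08), and Fosb by 0.16. The 8 that fell were Ier3 (-0.87), the mRNA decay factor Zfp36 (-0.59), the kinase Sik1 (-0.50), Btg2 (-0.49), Jun (-0.31), Rhob (-0.30), Myc (-0.16) and Junb (-0.14), each with a smaller fall than any of the 3 Egr genes. Genes named here beyond those of largest change or smallest p were picked after their values were seen.

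**Figure D4:**
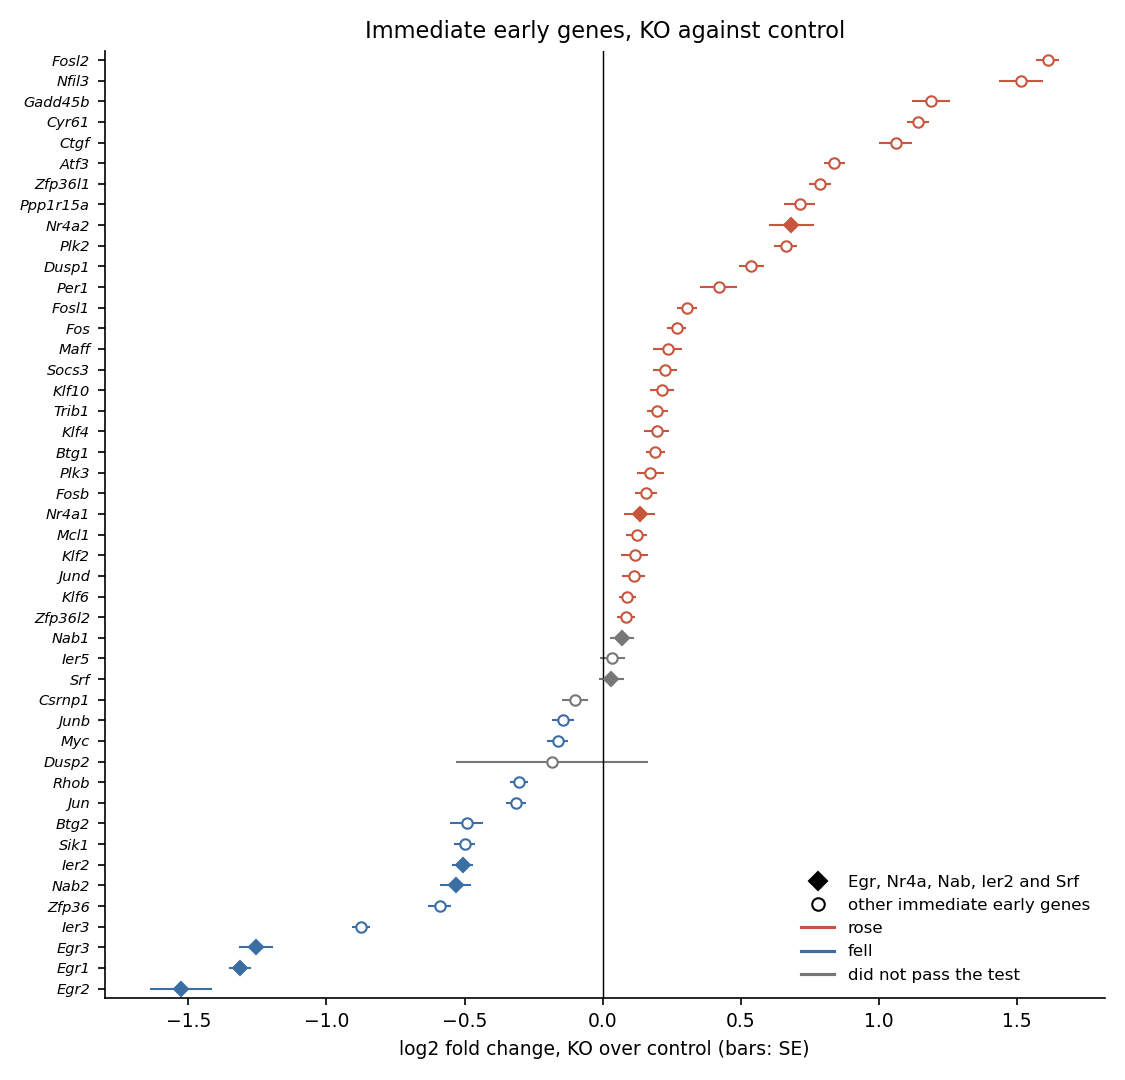
Log2 fold change (KO over control, horizontal axis, bars: SE) of 37 other immediate early genes (circles) and of the members except Nr4a3 (diamonds), in colour by call. Egr2, Egr1 and Egr3 are the lowest genes of the plot, and Fosl2 at 1.61 is the highest.

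Heat shock genes, which respond to warm enzymatic dissociation as the early genes do, were mostly higher in the KO libraries. Of 6 tested heat shock genes 5 rose and 0 fell (83.3% called, against 54.6% of all tested genes, 27.1% higher). The 7 listed summed to 3363 to 3589 CPM in control and 3619 to 3819 CPM in KO libraries. Hspa1b, an inducible heat shock protein with a near-identical copy, rose by 0.48 on the log2 scale (edgeR adjusted p = 1.28e-11). The chaperones Hsp90aa1 and Hsph1 rose by 0.17 and 0.14, and Hspb1, at 0.574 and 1.63 CPM, rose by 1.53. With a filter of a mean of 5 CPM, which leaves out Hspb1, 4 heat shock genes were called. The part of the dissociation in the values of the Egr and Nr4a genes was not tested.

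Among 12 tested genes described as Egr1 targets, 5 were called higher and 4 lower (median log2 fold change -0.06). That is 75% called, against 54.6% of all tested genes. Ptges, a prostaglandin E synthase, fell by 1.29 on the log2 scale (edgeR adjusted p = 2.48e-21), whereas the matricellular gene Thbs1 rose by 1.22 (edgeR adjusted p = 2.84e-26), the membrane protease Mmp14 by 0.78 and the coagulation receptor F3 by 0.85. Of 11 tested cytoskeletal targets of Srf and its actin-regulated cofactors, 7 rose and 2 fell (median 0.26). That is 81.8% called, against 54.6% of all tested genes (27.1% higher and 27.5% lower). Among those that rose, Acta2 passed the filter on low counts only through the KO libraries (0 CPM in the controls, 0.866 CPM on average in KO). The counts and the median include it. With a filter of a mean of 5 CPM, which leaves out Acta2, 8 of these targets were called. Tpm1, Tpm4 and Actg1 rose by 0.57, 0.36 and 0.33, and the LIM protein Fhl2 fell by 0.41.

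Of 10 tested targets of cAMP and CREB, the class to which the Nr4a genes belong, 7 rose and 1 fell (median 0.40). That is 80% called, against 54.6% of all tested genes (27.1% higher and 27.5% lower). Against a minimum fold change of 1.5, 2 genes of this list were called. Rgs2, a regulator of G protein signalling, rose by 1.48 on the log2 scale (edgeR adjusted p = 1.61e-17), the phosphatase Dusp1 by 0.54, and Sik1 was the 1 that fell. Nfil3, Dusp1, Sik1, Fosb and Per1 are also in the early gene list. Among 14 tested partners and upstream regulators of the Nr4a genes, 2 rose and 3 fell (median -0.02). That is 35.7% called, below the 54.6% of all tested genes. The heterodimer partner Rxra rose by 0.35 and its paralog Rxrb fell by 0.27, while Creb1 and the histone deacetylase Hdac5 fell by 0.20 and 0.17.

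By the root mean square difference of centred log2 CPM over the 6 libraries, the genes most like Egr1 among 9820 candidates were Fam213a (0.031), the glycolytic enzyme Pfkp (0.042) and the chemokine Cxcl1 (0.046). All 3 fell, with log2 fold changes of -1.29, -1.39 and -1.30, which the choice by closeness to Egr1 in these libraries fixed beforehand. Those most like Nr4a1 were the tRNA synthetase Nars (0.027), the replication gene Orc4 (0.029) and the heparan sulfate enzyme Ndst1 (0.030).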

How the data were processed

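Poly(A) RNA of 3 control and 3 KO libraries was sequenced with a stranded kit, per the labels' protocols. The authors deposited raw read counts per gene, with no normalization. Per the submitters' processing notes, FastQC 0.11.9, STAR 2.7.9a, featureCounts and R 4.1.1 were used, and the builds hg38 and mm10 are named. For the counting, neither annotation release nor strand setting is given in the sources used here.

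The comparison used edgeR 4.0.16 (R 4.3.3): filterByExpr (minimum count 10, total 15), TMM scaling, group as the only term, the quasi-likelihood F-test and Benjamini-Hochberg adjustment over 12158 genes at 0.05. CPM use TMM-scaled totals, and SE is the fold change over the square root of F. Alternatives used DESeq2 1.42.0 and limma 3.58.1. Gene positions and exon lengths are from GENCODE M21 (mm10). The test was checked on counts simulated from the means and dispersions fitted to these libraries, which cannot show whether the replicates were technical.

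Members and lists were chosen with earlier results of these data known, and the lists come from textbook knowledge. One leukocyte marker is not reported here. Named genes were all members, the 4 smallest adjusted p per list, early genes changed at least 2-fold, and the 3 genes nearest to Egr1 and to Nr4a1 (mean of at least 5 CPM, without predicted models). Other genes were named after their values had been seen.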

Additional observations from a re-analysis of the deposited data

How the results depend on the processing

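In 13 alternative analyses Egr1, Egr2 and Egr3 kept their direction and their call, with log2 fold changes of -1.35 to -1.26, -1.57 to -1.44 and -1.29 to -1.19. Nab1 and Srf passed in 0 of 13, without a change of sign. Nr4a3 kept its call in the 12 that tested it, since a filter of 5 CPM removed it. Against a minimum fold change of 1.5, the calls numbered 907 genes in place of 6639, 4 members in place of 8, and 16 genes of the 8 context lists in place of 70. That setting ended the calls of Nr4a2, Nab2 and Ier2 (edgeR adjusted p = 0.384, 1 and 1). Nr4a1 lost its call there (1), with the filter of 5 CPM (0.0508) and under the settings given with its values. Leaving out single libraries gave 5922 to 6276 genes, 7 to 8 members and 63 to 69 genes of the context lists. With the replicate number as a block, 6443 genes and 7 members were called, Nr4a1 being the member lost (edgeR adjusted p = 0.0563). Same-numbered libraries did not deviate together (correlations -0.029, -0.003 and -0.064), no library correlated best with its own number, and the block changed no other member's call.

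The difference in the share of Egr1 among Egr genes (0.05 percentage points) turned to -0.05 without control replicate 1, -0.03 without control replicate 3 and -0.71 without KO replicate 2, and ran up to 0.85. That of Egr3 (0.47) turned to -0.11 without KO replicate 1 and reached 1.01. Those of Egr2, Nr4a1, Nr4a2 and Nr4a3 kept their sign, at -0.74 to -0.30, -8.29 to -6.70, 5.86 to 7.67 and 0.61 to 0.84 points. The causes were not tested. Nr4a3 and Egr4 are limited by depth.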
